A study of Mus musculus with 16 samples.

Results

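The levels of 10 regulators of bone and cartilage fate and of vascular calcification were followed in cultured mouse aortic smooth muscle cells: Runx2, Sox9, Sp7, Alpl, Phospho1, Enpp1, Ank, Mgp, Spp1 and Tnfrsf11b. They were taken by gene symbol from the deposited table, which matched all 10 among its 20581 genes, and all 10 were among the 14217 genes that passed the filter on low counts (at least 4 of the 16 libraries at 1 CPM or more, a count scaled to its library total). The cells were primary cultures, digested with collagenase from aortas of C57BL/6J mice labelled male. The KO mice carried floxed Arg1 alleles and a Cre recombinase driven by the erythropoietin receptor (EpoR) gene, so that Arg1 was to be lost from red blood cells and their precursors, and the WT mice were their littermates; the sources used here do not say which of these alleles the WT mice carried. The deletion therefore lies in another lineage than the cells that were sequenced. Control cultures (WT DMEM and KO DMEM) were kept in DMEM with 10% fetal bovine serum. The others (WT DIAM and KO DIAM) spent 10 days in DIAM, a medium used to load the cells with lipid, in which DMEM was supplemented with 0.1 µM dexamethasone, 1 µM insulin and 50 µg/mL L-ascorbic acid. The sources used here do not say whether serum was kept in DIAM, so that the added agents, any loss of serum and the days in culture cannot be told apart. Each group had 4 libraries, numbered 1 to 4 here; nothing says whether each came from its own mouse, and p-values measure only the spread between these libraries.

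Smooth muscle cells of the artery wall can take on features of bone and cartilage cells, and this switch is a recognised part of vascular calcification. Runx2 and Sp7 (osterix) are the transcription factors that drive osteoblast differentiation, with Runx2 acting before Sp7, and Sox9 is the master factor of cartilage. Mineral forms where phosphate is released and pyrophosphate is removed. Tissue-nonspecific alkaline phosphatase (Alpl) hydrolyses pyrophosphate, and Phospho1 releases phosphate inside matrix vesicles, while Enpp1 makes extracellular pyrophosphate and Ank exports its source from the cell, so both work against mineral. Matrix Gla protein (Mgp), osteopontin (Spp1) and osteoprotegerin (Tnfrsf11b) are secreted proteins that restrain calcification in arteries. Dexamethasone with ascorbic acid is also part of common recipes for osteogenic culture, which add a phosphate source.

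RefSeq promoter windows of the GRCm38.p6 build were at hand for 6 of the 10 genes, in 8 windows. Those of Enpp1 and Ank are shown because both pyrophosphate genes fell together in DIAM in both genotypes, and that of Spp1 because its level differed widely between libraries of one group. Each line gives the 250 bases before the annotated start, 5′ to 3′ on the gene's strand. Capitals mark a RUNX motif (TGTGGT or its complement ACCACA) or a SOX motif (ACAAAG or its complement CTTTGT), and the window without capitals held neither.
Enpp1, chr10:24712160-24712409, minus strand: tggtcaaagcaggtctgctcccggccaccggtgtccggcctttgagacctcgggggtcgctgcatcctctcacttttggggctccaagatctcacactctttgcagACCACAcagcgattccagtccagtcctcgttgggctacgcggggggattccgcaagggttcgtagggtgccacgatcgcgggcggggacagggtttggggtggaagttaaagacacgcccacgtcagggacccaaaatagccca
Ank, chr15:27466427-27466676, plus strand: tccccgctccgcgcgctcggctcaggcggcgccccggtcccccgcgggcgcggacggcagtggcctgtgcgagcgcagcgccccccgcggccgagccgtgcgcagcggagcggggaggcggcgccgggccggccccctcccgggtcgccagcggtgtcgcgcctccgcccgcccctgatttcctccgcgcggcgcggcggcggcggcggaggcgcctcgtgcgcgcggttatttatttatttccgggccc
Spp1 (the more upstream of its starts), chr5:104434861-104435110, plus strand: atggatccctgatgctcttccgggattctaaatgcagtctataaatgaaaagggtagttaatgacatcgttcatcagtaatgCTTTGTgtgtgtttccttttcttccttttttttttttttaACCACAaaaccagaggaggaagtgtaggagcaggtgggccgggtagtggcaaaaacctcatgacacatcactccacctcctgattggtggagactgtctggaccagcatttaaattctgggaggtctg
The RUNX match of Enpp1 began 144 bases before its start and that of Spp1 128 bases before, and the SOX match of Spp1 began 168 bases before its start, all on the minus strand relative to the gene. Such short motifs are common: 14.1% of the 32851 windows of this length held the RUNX motif on either strand and 16.5% held the SOX motif. A RUNX match also lay 80 bases before the Runx2 start, while the window of Phospho1 held no match to either motif. Further SOX matches began 215 bases before 1 Alpl start and 246 and 146 bases before the other. Another began 243 bases before the more downstream Spp1 start. The full glucocorticoid response element, searched as AGAACA and TGTTCT with any 3 bases between them, was in none of the members' windows and in 0.00913% of all windows. A single AGAACA or TGTTCT, which 16.1% of all windows held, was found in 1 of the 2 Alpl windows, overlapping neither other motif. A match is a description of the letters only.

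Library totals lay between 37221313 and 47626242 estimated counts. The smooth muscle label was checked on 7 markers (Acta2, Myh11, Tagln, Cnn1, Smtn, Lmod1 and Myocd), all detected in every library, whose summed level was 2912 to 3766 CPM in WT DMEM, 2270 to 3975 in KO DMEM, 1038 to 1698 in WT DIAM and 1122 to 2070 in KO DIAM. The 7 did not move as one: in DIAM, Acta2, Tagln, Cnn1 and Smtn fell in both genotypes, Myocd rose in both (1.36 ± 0.32 and 2.22 ± 0.33 on the log2 scale, edgeR adjusted p = 0.00199 and 3.13e-05), Lmod1 rose in KO cells (0.54 ± 0.20, adjusted p = 0.0313), and Myh11 was not called. Markers of other cells were also present. Fibroblast markers (5 of 5 genes, none at 0) summed to 733 to 1015 CPM in WT DMEM and 746 to 1029 in KO DMEM, and to 1265 to 1737 in WT DIAM and 1427 to 1545 in KO DIAM, with no overlap between the media; 4 rose in both genotypes and Lum fell. Of 5 endothelial markers (28.4 to 48.6 CPM summed in DMEM and 39.8 to 86.1 in DIAM, none at 0), 2 rose in WT cells, and 3 rose and 1 fell in KO cells. Kdr had the largest rise, by 2.29 ± 0.23 and 2.70 ± 0.23 on the log2 scale. Vwf fell in KO cells (-1.29 ± 0.28), and Tek was called in neither genotype. Of 4 mesothelial markers (41.5 to 228 CPM in DMEM and 92.8 to 547 in DIAM, none at 0), Msln and Krt19 rose in both genotypes, Msln by 3.14 ± 0.45 and 3.18 ± 0.44. Upk3b and Lrrn4 were called in neither genotype. Chondrocyte markers (3 of 5 genes with values) summed to 6.25 to 12.04 CPM in DMEM and 1.02 to 3.65 in DIAM, and osteoblast markers, Sp7 included (4 of 5), to 1.01 to 2.43 and 0.545 to 1.10 CPM. Those of macrophages and leukocytes (6 of 6 genes, none at 0 in any library) summed to 821 to 1780, 1088 to 2340, 878 to 1518 and 1112 to 1466 CPM in the same order. Those of Schwann and neural cells (5 of 5 genes, none at 0 in any library) summed to 42.2 to 71.7, 38.9 to 74.7, 96.0 to 205 and 20.9 to 62.9 CPM. Adipocyte markers (4 of 5 genes with values) summed to 10.7 to 16.7 and 6.75 to 19.1 CPM in WT DMEM and KO DMEM and to 477 to 869 and 867 to 1245 CPM in WT DIAM and KO DIAM, and all 4 rose in DIAM in both genotypes, of which Cidec was below 1 CPM in every DMEM library. The part of these cells in the changes between media was not tested. Library 2 of KO DMEM and library 2 of WT DIAM lay farthest from their group means over all genes, with a root mean square deviation of 0.241 and 0.265 on the log2 scale, against 0.140 to 0.227 in the other 14 libraries. In these bulk cultures, fewer cells of a type and less RNA per cell cannot be told apart. Arg1 itself had 49 counts or fewer in every library, and since it is deleted in another lineage it does not check the genotype labels.

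Moving the cells to DIAM raised Runx2 and Sox9 and lowered Tnfrsf11b, Enpp1 and Ank, in both WT and KO cells. Sp7 was also called lower in both, but it entered the test only through 5 DMEM libraries. A difference between the media was therefore built into its selection. Sp7 is included in the counts of called and non-overlapping members below and in their medians. The mineral-promoting enzymes Alpl and Phospho1 did not pass the test in either genotype. In WT cells 6 of the 10 members were called, 2 higher and 4 lower, where 55.1% of all tested genes were called, 27.6% higher and 27.5% lower. In KO cells 8 members were called, 2 higher and 6 lower, with Spp1 and Mgp added to the lower side, where 60.7% of all tested genes were called, 29.8% higher and 30.8% lower. The share of members called in WT cells thus lay near that of all genes. The median log2 fold change of the members was -0.47 in WT cells and -0.55 in KO cells, against -0.01 and -0.02 for all tested genes. The libraries of the media did not overlap for 7 members in WT cells (2 higher and 5 lower in DIAM), against 49% of all tested genes (24.3% higher and 24.7% lower). In KO cells they did not overlap for 6 members (2 higher and 4 lower), against 55.1% of all tested genes (27.3% higher and 27.8% lower). Calls rest on the quasi-likelihood test of edgeR at a threshold of 0.05, after Benjamini-Hochberg adjustment over all 14217 genes. All levels below are TMM-scaled CPM (scaled by the trimmed mean of M values), given as mean ± SD with n = 4, and changes are log2 fold changes ± approximate SE.

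**Figure D1:**
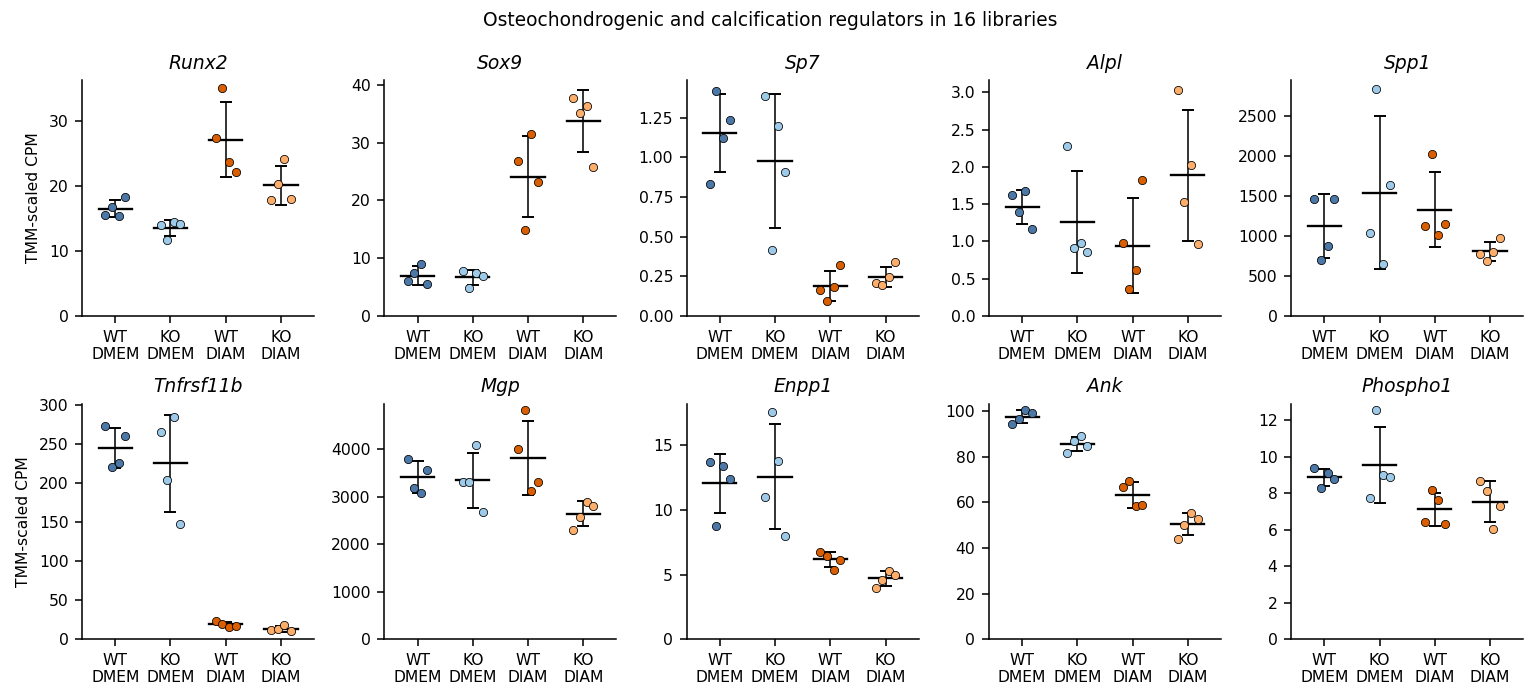
Each panel plots 1 regulator, with the 4 groups on the horizontal axis and TMM-scaled CPM from 0 on the vertical axis; points are libraries (1 to 4 from left), bars the mean and whiskers the SD (n = 4). Tnfrsf11b fell from 147 to 284 CPM in the 8 DMEM libraries to 10.4 to 23.7 CPM in the 8 DIAM libraries, and Sox9 rose in both genotypes with no overlap between the media.

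Of the 2 transcription factors that rose, Sox9 had the larger change. Its level was 6.00, 7.47, 9.06 and 5.49 CPM in libraries 1 to 4 of WT DMEM and 26.9, 14.9, 31.6 and 23.2 CPM in WT DIAM. The KO libraries had 7.80, 4.89, 7.42 and 6.85 CPM in DMEM and 37.7, 35.1, 36.3 and 25.8 CPM in DIAM. Every DIAM library stood above every DMEM library, although library 2 of WT DIAM was the lowest of its group. The rise was 1.78 ± 0.22 in WT cells (3.44-fold, edgeR adjusted p = 6.46e-06) and 2.32 ± 0.23 in KO cells (5.00-fold, adjusted p = 3.28e-07). Group means went from 7.003 ± 1.61 to 24.1 ± 7.04 CPM in WT cells and from 6.74 ± 1.30 to 33.7 ± 5.38 CPM in KO cells. Sox9 is also made by cells of the Schwann lineage, and of 4 tested Schwann and neural markers 2 rose and 1 fell in WT cells and 0 rose and 2 fell in KO cells. Sox10, which defines that lineage, rose by 3.34 ± 0.72 in WT cells (edgeR adjusted p = 0.00123) and had a change of 1.205 ± 0.70 in KO cells (adjusted p = 0.151), the difference between the genotypes not passing the test (adjusted p = 0.307). In KO cells, where Sox9 rose 5.00-fold, the summed markers were 38.9 to 74.7 CPM in DMEM and 20.9 to 62.9 CPM in DIAM.

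Runx2 rose less but as regularly. It was measured at 15.6, 16.7, 15.4 and 18.3 CPM in WT DMEM and at 27.4, 35.1, 23.7 and 22.2 CPM in WT DIAM. In KO cells the values were 14.04, 11.7, 14.4 and 14.1 CPM in DMEM and 17.8, 20.3, 24.2 and 18.01 CPM in DIAM. The media did not overlap in either genotype, and the highest value of all was that of library 2 of WT DIAM. The change was 0.71 ± 0.13 in WT cells (1.64-fold, edgeR adjusted p = 0.000249) and 0.56 ± 0.13 in KO cells (1.48-fold, adjusted p = 0.00174).

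Sp7, which acts after Runx2 in osteoblasts, went the other way at a very low level. Its counts were 36, 55, 53 and 50 in WT DMEM and 6, 4, 7 and 12 in WT DIAM. In KO cells they were 53, 16, 49 and 38 in DMEM and 8, 8, 9 and 13 in DIAM. No DIAM library reached 1 CPM, and Sp7 entered the test only through 5 DMEM libraries, so that a difference between the media was built into its selection. Its mean went from 1.15 ± 0.246 to 0.190 ± 0.0952 CPM in WT cells and from 0.977 ± 0.424 to 0.246 ± 0.0648 CPM in KO cells, a change of -2.59 ± 0.39 (edgeR adjusted p = 3.83e-05) and of -1.98 ± 0.38 (adjusted p = 0.000316). Among osteoblast markers, Bglap, Bglap2 and Dmp1 stayed below the filter and Ibsp is not analysed here, and the 4 markers with values summed to 0.545 to 2.43 CPM over all 16 libraries.

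The enzymes on the mineral-promoting side showed no call. Alpl had 70, 54, 79 and 47 counts in WT DMEM and 36, 15, 24 and 68 in WT DIAM. The KO libraries had 87, 35, 40 and 36 counts in DMEM and 117, 63, 74 and 37 in DIAM. The groups overlapped in both genotypes, and single libraries differed by several fold within a group. The change was -0.64 ± 0.45 in WT cells (edgeR adjusted p = 0.247) and 0.59 ± 0.44 in KO cells (adjusted p = 0.263), on means of 0.945 ± 0.640 to 1.89 ± 0.876 CPM. Without library 4 of WT DIAM, the highest of its group, the WT change was -1.18 (edgeR adjusted p = 0.0394).

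Phospho1 had slightly lower values in DIAM that missed the threshold. It was at 9.35, 8.29, 9.10 and 8.76 CPM in WT DMEM and at 6.40, 8.17, 7.60 and 6.30 CPM in WT DIAM, with no overlap. KO cells had 7.73, 12.6, 8.99 and 8.88 CPM in DMEM and 8.69, 8.12, 6.05 and 7.30 CPM in DIAM, with overlap. The log2 fold change was -0.32 ± 0.14 in WT cells (edgeR adjusted p = 0.0727) and -0.34 ± 0.14 in KO cells (adjusted p = 0.0524). The authors' deposited table gives an adjusted p of 0.0251 for the WT comparison, on the other side of the threshold. Phospho1 was called lower in WT cells without library 2 of KO DMEM or library 2 of WT DIAM (edgeR adjusted p = 0.0309 and 0.0451). In KO cells it was called without library 1 of KO DMEM or library 1 of KO DIAM (adjusted p = 0.0219 and 0.0323). Limma with quantile normalization called it in WT and KO cells (adjusted p = 0.0171 and 0.0347). So did edgeR with only the groups compared in WT cells (adjusted p = 0.0307) and with a filter at 5 CPM in KO cells (adjusted p = 0.0459). The call was made in 6 of 27 alternative settings in WT cells and 4 of 26 in KO cells.

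Both genes of the pyrophosphate side fell. Enpp1, the ectoenzyme that makes pyrophosphate from ATP, was at 13.7, 8.76, 13.4 and 12.4 CPM in WT DMEM and at 6.73, 6.44, 5.39 and 6.16 CPM in WT DIAM. The KO values were 10.97, 17.5, 13.8 and 8.02 CPM in DMEM and 3.98, 4.59, 5.31 and 4.99 CPM in DIAM. All 8 DIAM libraries lay below all 8 DMEM libraries. The fall was -0.96 ± 0.20 in WT cells (to 51.3% of the DMEM level, edgeR adjusted p = 0.000606) and -1.41 ± 0.20 in KO cells (to 37.5%, adjusted p = 1.52e-05).

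Ank, the transmembrane exporter, had the smallest SE of the 10 members in these comparisons. It stood at 94.4, 96.3, 100.4 and 99.1 CPM in WT DMEM and at 66.8, 69.5, 58.2 and 58.8 CPM in WT DIAM. The KO libraries stood at 81.8, 87.0, 89.1 and 84.7 CPM in DMEM and at 43.9, 50.0, 55.2 and 52.9 CPM in DIAM. The 4 groups formed 4 separate ranges, in the order WT DMEM, KO DMEM, WT DIAM and KO DIAM. The medium change was -0.62 ± 0.07 in WT cells (edgeR adjusted p = 1.40e-06) and -0.76 ± 0.07 in KO cells (adjusted p = 1.16e-07).

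Among the secreted inhibitors, Tnfrsf11b (osteoprotegerin, the decoy receptor of RANKL) had the largest change of the 10 genes. Its level was 272, 220, 226 and 260 CPM in WT DMEM and 23.7, 19.8, 16.2 and 17.3 CPM in WT DIAM. The KO libraries had 266, 203, 284 and 147 CPM in DMEM and 11.4, 13.5, 18.4 and 10.4 CPM in DIAM. The lowest DMEM library was still far above the highest DIAM library. The fall was -3.67 ± 0.22 in WT cells (12.7-fold lower, edgeR adjusted p = 2.70e-09) and -4.07 ± 0.23 in KO cells (16.8-fold lower, adjusted p = 9.47e-10). Counted from the most negative fold change of all 14217 genes, it held rank 41 in WT cells and rank 38 in KO cells.

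Mgp, the vitamin K dependent inhibitor of arterial calcification, was at 3791, 3183, 3078 and 3565 CPM in WT DMEM and at 4007, 4824, 3106 and 3298 CPM in WT DIAM. Levels in KO cells were 3308, 3304, 4082 and 2670 CPM in DMEM and 2307, 2571, 2889 and 2800 CPM in DIAM. Media overlapped in both genotypes. The change was 0.16 ± 0.14 in WT cells (edgeR adjusted p = 0.346) and -0.34 ± 0.14 in KO cells (adjusted p = 0.0476), a call that stood in 11 of 26 alternative settings.

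Spp1 varied widely between libraries. It was at 1462, 693, 872 and 1460 CPM in WT DMEM and at 1118, 2022, 1013 and 1145 CPM in WT DIAM. KO libraries 1 to 4 had 1039, 2828, 650 and 1633 CPM in DMEM and 769, 690, 797 and 972 CPM in DIAM. The highest values were those of library 2 of KO DMEM and library 2 of WT DIAM, the libraries with the largest deviations over all genes. The deviation of library 2 of KO DMEM (0.241) was close to that of library 3 of its group (0.227). The media overlapped in both genotypes. The change was 0.24 ± 0.38 in WT cells (edgeR adjusted p = 0.619) and -0.93 ± 0.38 in KO cells (adjusted p = 0.0480). Without library 2 of KO DMEM the KO change was -0.46 (adjusted p = 0.252), and the call stood in 8 of 26 alternative settings. Macrophages also make Spp1: library 2 of KO DMEM had the highest summed macrophage and leukocyte markers of all libraries, 2340 CPM, and library 2 of WT DIAM had 1503 CPM, within the 878 to 1518 CPM of its group. The part of these cells in the Spp1 values was not tested.

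**Figure D2:**
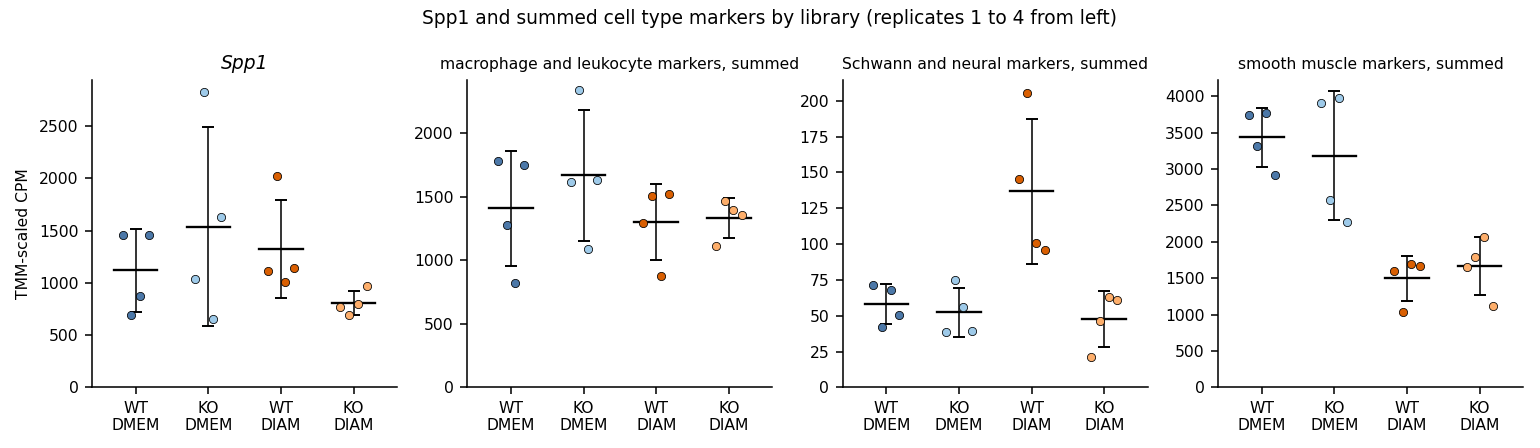
Panels show Spp1 and the summed markers of macrophages and leukocytes, of Schwann and neural cells and of smooth muscle in TMM-scaled CPM on the vertical axis, for the 4 groups on the horizontal axis; points are libraries (1 to 4 from left), bars the mean and whiskers the SD (n = 4). Library 2 of KO DMEM is highest for Spp1 (2828 CPM) and for macrophage and leukocyte markers (2340 CPM), and the WT DIAM libraries lie above the other groups for Schwann and neural markers.

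Between genotypes in DIAM, KO cells had lower Mgp and Ank. These were 2 of the 10 members, both on the lower side, where 8.38% of all tested genes were called, 3.43% higher and 4.95% lower. Mgp ran from 2307 to 2889 CPM in KO DIAM and from 3106 to 4824 CPM in WT DIAM, with means of 2642 ± 260 and 3809 ± 780 CPM. Its log2 difference was -0.53 ± 0.14 (KO at 69.4% of WT, edgeR adjusted p = 0.0342). Ank ran from 43.9 to 55.2 CPM in KO DIAM and from 58.2 to 69.5 CPM in WT DIAM, with means of 50.5 ± 4.87 and 63.3 ± 5.68 CPM. Its log2 difference was -0.33 ± 0.07 (KO at 79.7% of WT, edgeR adjusted p = 0.0156).

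The groups did not overlap for 4 members in DIAM (Mgp, Ank, Spp1 and Enpp1), each lower in every KO library, where 16.4% of all tested genes did not overlap, 7.38% higher and 9.05% lower in KO. Spp1 was at 807 ± 119 CPM in KO and 1325 ± 468 CPM in WT, a log2 difference of -0.71 ± 0.38 (edgeR adjusted p = 0.261). Enpp1 was at 4.72 ± 0.573 CPM in KO and 6.18 ± 0.576 CPM in WT, a difference of -0.39 ± 0.20 (adjusted p = 0.239). For Enpp1 the authors' deposited table gives an adjusted p of 0.0447. The remaining members overlapped between genotypes: Runx2 differed by -0.43 ± 0.13 (edgeR adjusted p = 0.0522), Tnfrsf11b by -0.52 ± 0.21 (adjusted p = 0.138), Sox9 by 0.48 ± 0.21 (adjusted p = 0.163), Alpl by 1.00 ± 0.45 (adjusted p = 0.175), Sp7 by 0.38 ± 0.45 (adjusted p = 0.646) and Phospho1 by 0.08 ± 0.14 (adjusted p = 0.766). The median over the 10 members was -0.36, against 0.00 for all tested genes.

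The genotype calls in DIAM depended on the fit. With only the WT DIAM and KO DIAM libraries in the model, neither Mgp (edgeR adjusted p = 0.0744) nor Ank (adjusted p = 0.0716) was called, and no gene of the 14217 was, while the log2 differences stayed at -0.53 and -0.33. Without library 2 of WT DIAM the adjusted p was 0.132 for Mgp, with a difference of -0.39, and 0.0507 for Ank, with -0.27. Leaving out library 1 of WT DIAM or library 2 of KO DIAM also ended both calls, with differences of -0.49 and -0.52 for Mgp (adjusted p = 0.0908 and 0.0982) and -0.29 and -0.32 for Ank (0.0531 and 0.0561). The call of Mgp alone ended without library 1 of KO DIAM (-0.47, adjusted p = 0.101), with the replicate number as a block (-0.52, adjusted p = 0.0529) and, in limma, with quantile normalization (-0.36, adjusted p = 0.116). Without library 4 of WT DIAM, 4 members were called: Mgp and Ank, Runx2 at -0.52 (adjusted p = 0.0243) and Alpl at 1.54 (adjusted p = 0.0425). Runx2 was also called without library 3 of WT DIAM, library 3 of KO DIAM or library 2 of KO DMEM (adjusted p = 0.0387, 0.0302 and 0.0497), at -0.43 by DESeq2 (adjusted p = 0.0237) and at -0.44 by edgeR with a filter at 5 CPM (adjusted p = 0.0463). Enpp1 was called in the authors' deposited table (-0.39, adjusted p = 0.0447). Schwann and neural markers moved with this comparison: their sum was 96.0 to 205 CPM in WT DIAM and 20.9 to 62.9 CPM in KO DIAM, with no overlap, and Ncam1 was called lower in KO (-1.01 ± 0.23, edgeR adjusted p = 0.0209). Macrophage and leukocyte markers summed to 878 to 1518 CPM in WT DIAM and 1112 to 1466 CPM in KO DIAM, and none of the 6 was called. Of the 4 adipocyte markers, Plin1 was called higher in KO (0.81 ± 0.24, edgeR adjusted p = 0.0494), and of the 7 smooth muscle markers none was called. The part of these cells in the differences of Mgp and Ank was not tested.

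In DMEM no member was called between genotypes. This was also so for all 14217 genes with edgeR (0% called), where 438 had an unadjusted p under 0.05, while 1 gene was called by DESeq2 and 2 genes in the authors' deposited table, none of them a member. The groups did not overlap for 2 members, Ank and Runx2, both lower in KO, where 1.6% of all tested genes did not overlap, 0.774% higher and 0.823% lower. Ank was at 85.6 ± 3.11 CPM in KO and 97.6 ± 2.70 CPM in WT, a log2 difference of -0.19 ± 0.07 that had an unadjusted p of 0.0153 and an edgeR adjusted p of 0.9998. Runx2 was at 13.6 ± 1.24 CPM in KO and 16.5 ± 1.34 CPM in WT, a log2 difference of -0.28 ± 0.13 (edgeR adjusted p = 0.9998). The members' median was -0.09, against -0.01 for all tested genes. The DMEM comparison uses other libraries than the DIAM comparison.

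Whether the response to DIAM differed between genotypes was tested by the interaction of genotype and medium, in which no member was called and 0% of all genes were. By unadjusted p under 0.05, 2255 genes and 2 members (Spp1 and Mgp) passed, while 225 genes were called by DESeq2 and 234 in the authors' deposited table, none of them a member. The interaction was -1.17 ± 0.54 for Spp1 (edgeR adjusted p = 0.309), -0.50 ± 0.20 for Mgp (adjusted p = 0.251) and 1.23 ± 0.63 for Alpl (adjusted p = 0.357). Sox9 had an interaction of 0.54 ± 0.31 (adjusted p = 0.405), Enpp1 of -0.45 ± 0.28 (adjusted p = 0.439) and Tnfrsf11b of -0.40 ± 0.29 (adjusted p = 0.518). The calls of Spp1 and Mgp in KO cells and their absence in WT cells are therefore not shown to be a difference between the genotypes.

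**Figure D3:**
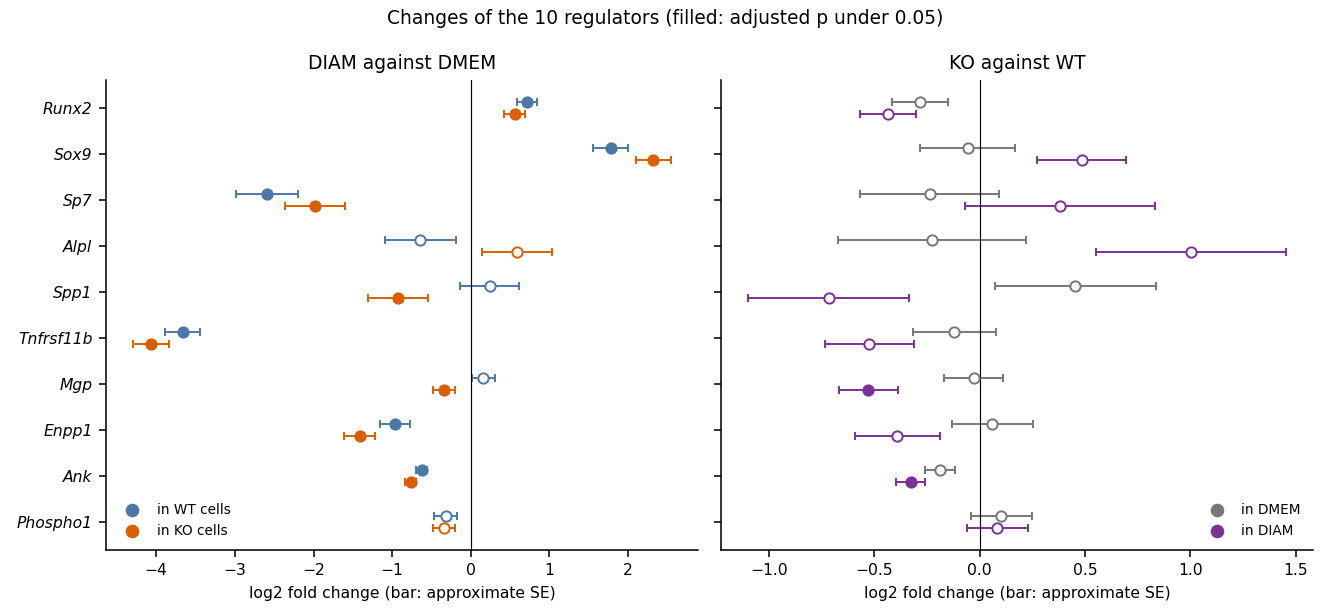
Points are log2 fold changes (horizontal axis) of the 10 regulators (vertical axis) with their approximate SE, for DIAM against DMEM on the left and KO against WT on the right; filled points had an adjusted p under 0.05. Tnfrsf11b lies at -3.67 in WT and -4.07 in KO cells, and on the right only Mgp and Ank in DIAM are filled.

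The genes around the 10 regulators were followed in 6 lists with 73 tested genes. In DIAM against DMEM, 21 of the 73 were called higher and 34 lower in WT cells, where 27.6% of all tested genes were higher and 27.5% lower, and 25 higher and 33 lower in KO cells, where the shares were 29.8% and 30.8%. Of the 73, 7 passed the filter only through their DMEM libraries (Dlx5, Sost, Col2a1, Acan, Matn3, Enpp3 and Tnfsf11), 1 only through DIAM (Runx3), and 1 only through both media counted together (Phex), so that a difference between the media was built into the choice of the first 8. The 64 genes that passed in each medium held 20 higher and 28 lower in WT cells and 23 and 26 in KO cells. Between genotypes, none was called in DMEM, where 0% of all tested genes were, and in DIAM 4 were higher and 11 lower in KO, where 3.43% of all tested genes were higher and 4.95% lower. The members of each list that are named here are the 4 of smallest p in WT cells, unless said otherwise.

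Of 12 tested osteochondrogenic factors, 3 rose and 6 fell in WT cells and 5 rose and 6 fell in KO cells. Over all tested genes, 27.6% rose and 27.5% fell in WT cells, and 29.8% and 30.8% in KO cells. The factors that fell include Dlx5, which passed the filter only through DMEM, and those that rose include Runx3, which passed only through DIAM. Sox5 and Sox6, the partners of Sox9 in cartilage, rose with it. Sox5 went from 6.62 ± 1.27 to 23.8 ± 2.63 CPM in WT cells and reached 24.3 ± 3.36 CPM from 5.20 ± 0.483 in KO cells, with edgeR adjusted p of 7.44e-09 and 8.94e-10. Sox6 went from 1.52 ± 0.411 to 10.0 ± 3.75 CPM in WT cells and reached 8.35 ± 4.49 CPM from 1.99 ± 1.57 in KO cells, with edgeR adjusted p of 0.000388 and 0.00238. Twist2, a restrainer of Runx2, fell from 24.2 ± 1.16 to 19.5 ± 0.446 CPM in WT libraries, with an adjusted p of 0.000796, and Atf4, an osteoblast factor that also answers to stress, fell from 224 ± 17.3 to 193 ± 4.80 CPM (adjusted p = 0.00238). Both fell in KO cells too. Chosen after their values were seen, the Runx2 relative Runx1 and Cbfb, the shared partner subunit of the RUNX proteins, fell in DIAM while Runx2 rose. The third RUNX gene, Runx3, went the other way from Runx1: it was at 0.247 ± 0.128 and 0.357 ± 0.277 CPM in WT and KO DMEM and at 1.63 ± 0.784 and 0.844 ± 0.251 CPM in WT and KO DIAM, and passed the filter only through DIAM. Runx1 was at 76.7 ± 4.18 CPM in WT DMEM, 74.7 ± 10.1 in KO DMEM, 50.0 ± 8.56 in WT DIAM and 28.9 ± 8.92 in KO DIAM. It was lower in KO than in WT in DIAM (-0.79 ± 0.18, edgeR adjusted p = 0.0180), as was Cbfb (-0.42 ± 0.11, adjusted p = 0.0351). Msx2 and Dlx6 were below the filter, and Dlx3 is not analysed here.

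Of 12 tested bone and cartilage matrix genes, 3 rose and 8 fell in WT cells and 4 rose and 8 fell in KO cells. The shares of all tested genes were 27.6% higher and 27.5% lower in WT cells, and 29.8% and 30.8% in KO cells. Sost, Col2a1, Acan and Matn3, all lower in both genotypes, passed the filter only through DMEM. Their fall was thus built into their choice. Among genes that passed in each medium, Omd, Col11a1 and Comp rose and Sparc, Col1a1, Col1a2 and Col10a1 fell, in both genotypes. Collagen I and Sparc (osteonectin), the main organic components of bone but also made by fibroblasts and smooth muscle, fell. Col1a1 went from 9272 ± 704 to 4466 ± 1065 CPM in WT cells and from 8982 ± 1608 to 2309 ± 696 CPM in KO cells, and Sparc from 9046 ± 753 to 5645 ± 875 and from 8683 ± 411 to 4405 ± 291 CPM. Sost (sclerostin), a Wnt inhibitor of osteocytes that is also made in the aorta and passed the filter only through its DMEM libraries, went from 18.1 ± 3.87 to 0.0390 ± 0.0157 CPM in WT cells and from 16.4 ± 10.8 to 0.109 ± 0.0427 CPM in KO cells. Col11a1, a fibrillar collagen of cartilage, rose from 187 ± 20.0 to 369 ± 31.0 CPM in WT libraries, with an edgeR adjusted p of 1.27e-06, and KO libraries rose from 172 ± 22.9 to 278 ± 35.7 CPM, with an adjusted p of 4.09e-05. Chosen after their values were seen, Col2a1, Acan and Comp, matrix genes of cartilage, did not move together. Comp rose from 205 ± 31.5 to 426 ± 94.0 CPM in WT libraries, with an edgeR adjusted p of 0.000359, and KO libraries rose from 178 ± 50.3 to 442 ± 51.8 CPM, with an adjusted p of 4.35e-05. Col2a1 and Acan, known targets of Sox9, passed the filter only through their DMEM libraries and are given by their levels. Col2a1 was at 3.13 ± 0.570 CPM in WT DMEM, 3.005 ± 1.75 in KO DMEM, 0.495 ± 0.443 in WT DIAM and 0.381 ± 0.116 in KO DIAM, and Acan at 3.29 ± 0.919, 2.43 ± 1.28, 0.725 ± 0.406 and 0.790 ± 0.620 CPM. In DIAM 5 of the 12 matrix genes were lower and 1 higher in KO than in WT, against 4.95% and 3.43% of all tested genes, Col1a1 by -0.95 ± 0.20 (edgeR adjusted p = 0.0150). Bglap, Bglap2 and Dmp1 were below the filter, and Ibsp, Mepe, Hapln1, Chad and Cnmd are not analysed here.

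Of 13 tested genes of phosphate, pyrophosphate and matrix vesicles, 6 rose and 1 fell in WT cells and 5 rose and 3 fell in KO cells. Among all tested genes 27.6% rose and 27.5% fell in WT cells, and 29.8% and 30.8% in KO cells. Enpp3, among the genes that fell in KO cells, passed the filter only through DMEM. Enpp2 (autotaxin), a relative of Enpp1 that makes lysophosphatidic acid and not pyrophosphate, rose from 2.24 ± 0.469 to 80.3 ± 28.8 CPM in WT cells and from 2.10 ± 0.474 to 142 ± 14.04 CPM in KO cells. It was also higher in KO than in WT in DIAM (0.82 ± 0.21, edgeR adjusted p = 0.0329). Smpd3, a sphingomyelinase needed for skeletal mineralization, rose from 29.3 ± 5.86 to 148 ± 43.2 CPM in WT cells and from 41.5 ± 22.7 to 200 ± 42.5 CPM in KO cells. Ppa1, the cytosolic pyrophosphatase, rose from 26.6 ± 2.11 to 65.8 ± 14.4 CPM and from 24.7 ± 2.67 to 90.9 ± 14.7 CPM in the same order. Slc20a2, the phosphate importer PiT-2, fell from 65.0 ± 9.10 to 36.5 ± 2.85 CPM in WT cells and from 64.9 ± 5.92 to 37.7 ± 1.45 CPM in KO cells. Abcc6, whose loss causes ectopic calcification, was below the filter.

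Of 7 tested genes of Gla protein activation and circulating inhibitors, which bear on Mgp, 1 rose and 4 fell in WT cells and 1 rose and 3 fell in KO cells. All tested genes had shares of 27.6% higher and 27.5% lower in WT cells, and 29.8% and 30.8% in KO cells. Gas6, a Gla protein and ligand of the TAM receptors, rose from 3274 ± 310 to 6433 ± 185 CPM in WT cells and from 3260 ± 294 to 7293 ± 402 CPM in KO cells. Ggcx, the vitamin K dependent carboxylase that activates Mgp, fell from 62.0 ± 3.56 to 51.0 ± 1.25 CPM in WT libraries, with an edgeR adjusted p of 0.000230, and KO libraries fell from 58.8 ± 2.52 to 51.4 ± 2.58 CPM, with an adjusted p of 0.00410. Vkorc1, which recycles vitamin K, fell by 0.21 and 0.23 on the log2 scale (adjusted p = 0.0272 and 0.0155). Fam20c, the kinase of secreted phosphoproteins, fell by 0.25 and 0.36 (adjusted p = 0.0179 and 0.00164). None of the 7 differed between genotypes by call in DIAM. Fgf23 was below the filter and Kl is not analysed here.

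Of 12 tested partners of osteoprotegerin and osteopontin, 1 rose and 8 fell in each genotype. Shares over all tested genes were 27.6% higher and 27.5% lower in WT cells, and 29.8% and 30.8% in KO cells. The 8 lower genes include Tnfsf11, whose fall was built into its choice by the filter. Integrin subunits led this list. Itgav and Itgb5, which form an osteopontin receptor, went from 251 ± 20.0 to 144 ± 13.7 CPM and from 710 ± 31.4 to 379 ± 21.5 CPM in WT cells. Itga4 went from 10.2 ± 1.57 to 2.18 ± 0.596 CPM, and Itga5, the fibronectin receptor subunit, rose from 127 ± 11.9 to 260 ± 5.84 CPM. In KO cells the 4 genes changed in the same directions, to 132 ± 11.8, 325 ± 28.1, 2.40 ± 0.382 and 202 ± 15.4 CPM. Chosen after its values were seen, Tnfsf11 (RANKL), the ligand that osteoprotegerin blocks, was at 8.96 ± 2.01 CPM in WT DMEM, 10.7 ± 4.33 in KO DMEM, 1.27 ± 0.741 in WT DIAM and 0.545 ± 0.316 in KO DIAM, and passed the filter only through its DMEM libraries. In DIAM 3 of the 12 partners were lower in KO than in WT, against 4.95% of all tested genes, and none was higher. Tnfsf10 was below the filter.

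All 17 genes of BMP and Wnt input were tested: 7 rose and 7 fell in WT cells, 9 rose and 5 fell in KO cells, and 2 were higher in KO than in WT in DIAM. Of all tested genes, 27.6% rose and 27.5% fell in WT cells, and 29.8% and 30.8% in KO cells. In DIAM 3.43% of all tested genes were higher in KO than in WT. The ligand Bmp4 fell from 258 ± 27.9 to 35.8 ± 8.35 CPM in WT cells and from 238 ± 66.0 to 50.9 ± 13.5 CPM in KO cells. Among secreted antagonists, Grem1 fell from 685 ± 84.4 to 88.9 ± 9.25 CPM and Sfrp4 from 216 ± 32.8 to 3.41 ± 1.12 CPM in WT cells, while Chrdl1 rose from 6.98 ± 0.802 to 83.2 ± 4.79 CPM. In KO DIAM they stood at 108 ± 18.8, 2.54 ± 0.387 and 96.6 ± 20.8 CPM, each changed in the same direction as in WT cells by call.

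**Figure D4:**
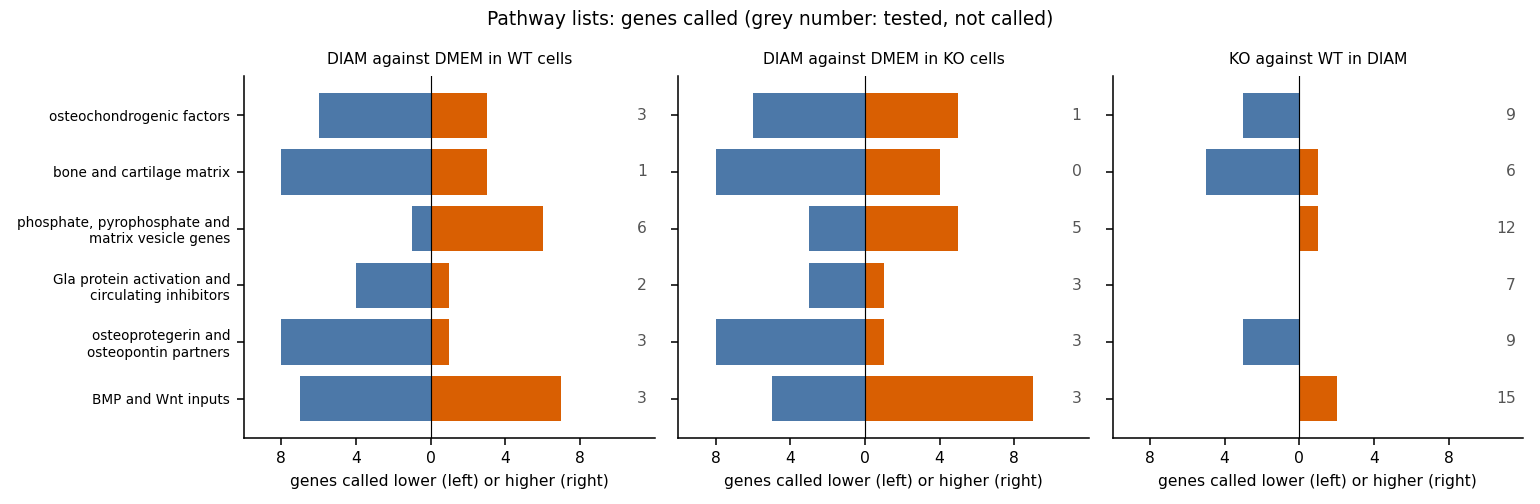
Bars count the genes called lower (left of 0, blue) and higher (right of 0, orange) in 6 lists, for DIAM against DMEM in WT and KO cells and for KO against WT in DIAM; grey numbers are tested genes that were not called. In DIAM against DMEM, the phosphate and pyrophosphate list has 6 genes higher and 1 lower in WT cells, and 5 and 3 in KO cells. The partners of osteoprotegerin and osteopontin have 1 higher and 8 lower in each genotype. Over all tested genes, 27.6% were higher and 27.5% lower in WT cells, and 29.8% and 30.8% in KO cells. The bars include genes that passed the filter in only 1 medium, such as Sost, Col2a1, Acan, Matn3, Dlx5 and Tnfsf11 (DMEM).

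Over the 16 libraries, the genes whose log2(CPM + 1) followed each member most closely, by Pearson r, are given as a description; the points share 4 groups, and the 2 media set much of the likeness. Genes close to Tnfrsf11b included Rtn4 (0.994) and Epdr1 (0.993), and Sox9 was closest to Gnai1 (0.993), Dlc1 (0.990) and Tmod3 (0.990). Ank was closest to Cdk2ap1 (0.983), Mcm2 (0.983) and Fkbp10 (0.982), Sp7 to Amigo2 (0.978), Myo10 (0.974) and Kank4 (0.973), and Enpp1 to Ldlrad4 (0.961), Ndufa4l2 (0.956) and Gucy1b1 (0.953). The other members had looser likeness. Runx2 was closest to Parp9 (0.943), Cnp (0.929) and Shroom4 (0.928), Mgp to Ctsh (0.929), Cgref1 (0.919) and Endod1 (0.907), and Spp1 to Mmp3 (0.917), Tinf2 (0.898) and Cotl1 (0.896). Phospho1 was closest to Echdc2 (0.897), Pick1 (0.855) and Scamp5 (0.836), and Alpl to Plcxd2 (0.796), Etfrf1 (0.765) and Spry4 (0.743).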

How the data were processed

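Total RNA of 16 libraries was sequenced after an unstranded library preparation, per the labels' protocols, so that reads of antisense genes cannot be told apart. The submitters' processing notes name Salmon 1.9.0, FastQC, R 4.4.2 and DESeq2 1.46.0, and the build GRCm39. The library columns are called TPM per the labels, but they sum to different totals (37221313 to 47626242 after rounding), and were therefore taken as estimated counts, as deposited, and rounded. For 4 comparisons the same table holds the authors' mean normalised signal, log2 fold changes, p-values and adjusted p-values, per the file headers. The design text speaks of 4 biological replicates and the library protocol of triplicates; 4 libraries per group were used, all labelled batch 1.

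Genes with at least 1 unscaled CPM in at least 4 libraries were tested (14217 of 20581, at least 99.83% of the counts of each library) in R 4.3.3 with edgeR 4.0.16 (quasi-likelihood, two-sided), with TMM scaling, robust dispersions and 1 model of 4 groups (12 residual degrees of freedom). A test on log2(TPM + 1) had been planned only for the case that the columns proved to hold TPM, and was not used. The SE of a log2 fold change is its size over the square root of the F statistic. P-values were adjusted by Benjamini-Hochberg over all genes tested, with a threshold of 0.05. Scripts were tested on simulated data. Alternatives used DESeq2 1.42.0, limma 3.58.1, other scalings and filters, a replicate block, the authors' adjusted p-values and each library left out; leaving out 2 libraries together was added after seeing the data. The members and lists were chosen with earlier results of these data known. Named are all members, in each list up to 4 genes of smallest p in WT cells at a mean of 5 CPM or more, and for each member the 3 genes of highest r; 1 gene that this rule takes is not reported here. Gene coordinates of GRCm39 were not used here; promoter windows are from RefSeq (GRCm38.p6).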

Additional observations from a re-analysis of the deposited data

Results flagged for a closer look

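Among 136 sets of 4 libraries examined, 5 held a library set apart from the other 3 by a gap above Dixon's critical value for 4 values, which chance passes in about 1 of 20 sets. Runx2 was lowest in library 2 of KO DMEM, at 11.7 CPM against 14.04 to 14.4 CPM. Spp1 was highest in library 2 of WT DIAM, at 2022 CPM against 1013 to 1145 CPM. Alpl was highest in library 1 of KO DMEM, at 2.28 CPM against 0.862 to 0.977 CPM. Among the listed genes, Sox6 was highest in library 4 of KO DIAM, at 15.1 CPM against 5.92 to 6.49 CPM, and Twist2 was lowest in library 4 of WT DMEM, at 22.5 CPM against 24.6 to 24.9 CPM.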

How the results depend on the processing

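Of the member values under the alternatives, 1228 kept their direction and side of the threshold, 46 lost and 19 gained a call, and 26 changed sign; the cause was not tested. The medium calls of Runx2, Sox9, Tnfrsf11b, Enpp1 and Ank stood in every alternative that gave a value, in both genotypes. The call of Sp7 did too, but a difference between the media was built into its selection. A filter at 5 CPM removes Sp7 and Alpl, and no authors' values were used for the medium comparison of KO cells. Members called were 6 to 7 in WT and 6 to 8 in KO cells on leaving out 1 library, and 7 and 7 without both libraries 2 (KO DMEM and WT DIAM). Between genotypes in DIAM, 2 members and 1191 genes became 1 and 1396 with quantile normalization, 0 and 0 with only the groups compared, 0 and 362 without both libraries 2, 3 and 1873 with DESeq2, 3 and 1810 in the authors' deposited table, and 0 to 4 and 178 to 1480 on leaving out 1 library (178 without KO DIAM 2, 275 without KO DIAM 1, 299 without WT DIAM 1 and 316 without WT DIAM 2). In DMEM the genotype calls over all genes were 1 with DESeq2, 2 in the authors' deposited table and 0 to 2 on leaving out 1 library, and for the interaction 225, 234 and 0 to 1. Same-numbered libraries did not deviate together throughout (r from -0.277 to 0.427, over 0.1 for at most 3 of 4 pairs), and each library matched its own number best in at most 3 of 4; with the replicate block, 6 members were called in WT cells, 6 in KO cells (Spp1 and Mgp lost) and 1 between genotypes in DIAM (Mgp lost), and 1191 genes in the last.

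All sign changes were in values without a call. In WT cells, DIAM against DMEM was -0.039 for Spp1 without WT DIAM 2 or without both libraries 2 (-0.039 to 0.40 on leaving out 1 library), and -0.065 for Mgp with quantile normalization. For KO against WT in DMEM, leaving out KO DMEM 2 gave 0.069 for Sox9, 0.015 for Sp7, -0.019 for Spp1, -0.14 for Enpp1 and -0.057 for Phospho1, and leaving out both libraries 2 gave 0.073, 0.020, -0.017, -0.14 and -0.054. Leaving out 1 library gave -0.16 to 0.094 for Sox9 (highest without WT DMEM 3), -0.45 to 0.015 for Sp7, -0.019 to 0.72 for Spp1, -0.24 to 0.038 for Tnfrsf11b (highest without KO DMEM 4), -0.13 to 0.066 for Mgp (0.039 without WT DMEM 1, highest without KO DMEM 4), -0.14 to 0.23 for Enpp1 (-0.058 without WT DMEM 2) and -0.057 to 0.20 for Phospho1. Mgp was 0.12 with quantile normalization. The interaction of Phospho1 was 0.053 with quantile normalization, 0.22 without both libraries 2, and -0.10 to 0.14 on leaving out 1 library.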
